A study of Sus scrofa with 24 samples.

Results

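Fetal longissimus dorsi, the long muscle of the back, was compared between Pietrain (Pi) and German Landrace (DL) pigs at 63 days post conception (dpc). The comparison rested on 6 of the 24 arrays of the series, 3 RNA pools of Pi fetuses and 3 of DL fetuses, each named a, b and c and chosen by the breed and stage in their titles. It covered 23999 of the 24123 probe sets of the Affymetrix porcine array, all those that are not Affymetrix controls. The other 18 arrays held both breeds at 35 dpc, at 91 dpc and as adults, and no group received a treatment or carries a named allele. How many fetuses a pool held, and of which sex, is not stated in the labels, and the p-values measure only the spread between pools, which may be technical. A free-text label calls these fetal samples peripubertal, while their titles, stage fields and source names give 63 dpc.

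Pietrain is a breed known for heavy muscling and lean carcasses, and German Landrace is a dam-line breed with more moderate muscling. Muscle fibres of the pig fetus form in successive generations, an early primary one that lays down the plan of the muscle and a later secondary one that supplies most fibres, so the number of fibres is largely set before birth. Fetal muscle tissue also holds connective tissue, vessels, nerves and blood.

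Values were log2 intensities, and each difference is Pi minus DL on that scale. Differences were tested with limma over all 24 arrays, a probe set was counted as passing with a Benjamini-Hochberg adjusted p below 0.05 over all 23999, and values after ± beside a difference are standard errors of that fit. Each gene is represented by its brightest probe set among those annotated to it alone. A probe set was read as at background on an array where it did not exceed the brightest of 23 spike-in control probe sets whose target was absent, 2.31 to 2.38 on the 6 arrays. Between 21.7% and 24.4% of the probe sets were at background in the Pi pools, and 21.3% to 22.6% in the DL pools. Over all probe sets of an array, which are no replicates, pools of Pi correlated with one another at 0.982 to 0.988, pools of DL at 0.980 to 0.982, and pools of different breeds at 0.972 to 0.982. Of 11 skeletal muscle markers 10 were measured, and none of these 10 was below 13.53 on any of the 6 arrays, so the tissue label holds.

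At 63 dpc 329 of the 23999 probe sets passed (1.37%), 161 higher (0.671%) and 168 lower (0.7%) in Pi. Of 6765 genes with a probe set of their own, 130 passed (1.92%), 63 higher (0.931%) and 67 lower (0.99%) in Pi. The median absolute difference of the 329 was 1.07, and 44 of them differed by 2 or more on the log2 scale. The pools of the breeds did not overlap for 326 of the 329, against 21.6% of all probe sets. The count depended on which arrays gave the spread: the 6 arrays alone left 11 probe sets, 4 of them among the 329, and the 18 fetal arrays gave 575, with 284 of the 329 among them. Leaving out 1 pool gave 192 probe sets without Pi a, 178 without Pi b, 167 without Pi c, 163 without DL a, 388 without DL b and 176 without DL c. Scaling the arrays to the spiked hybridisation controls moved the median difference of all probe sets to -0.11, against 0.01, and gave 212 probe sets, 47 higher and 165 lower in Pi.

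**Figure D1:**
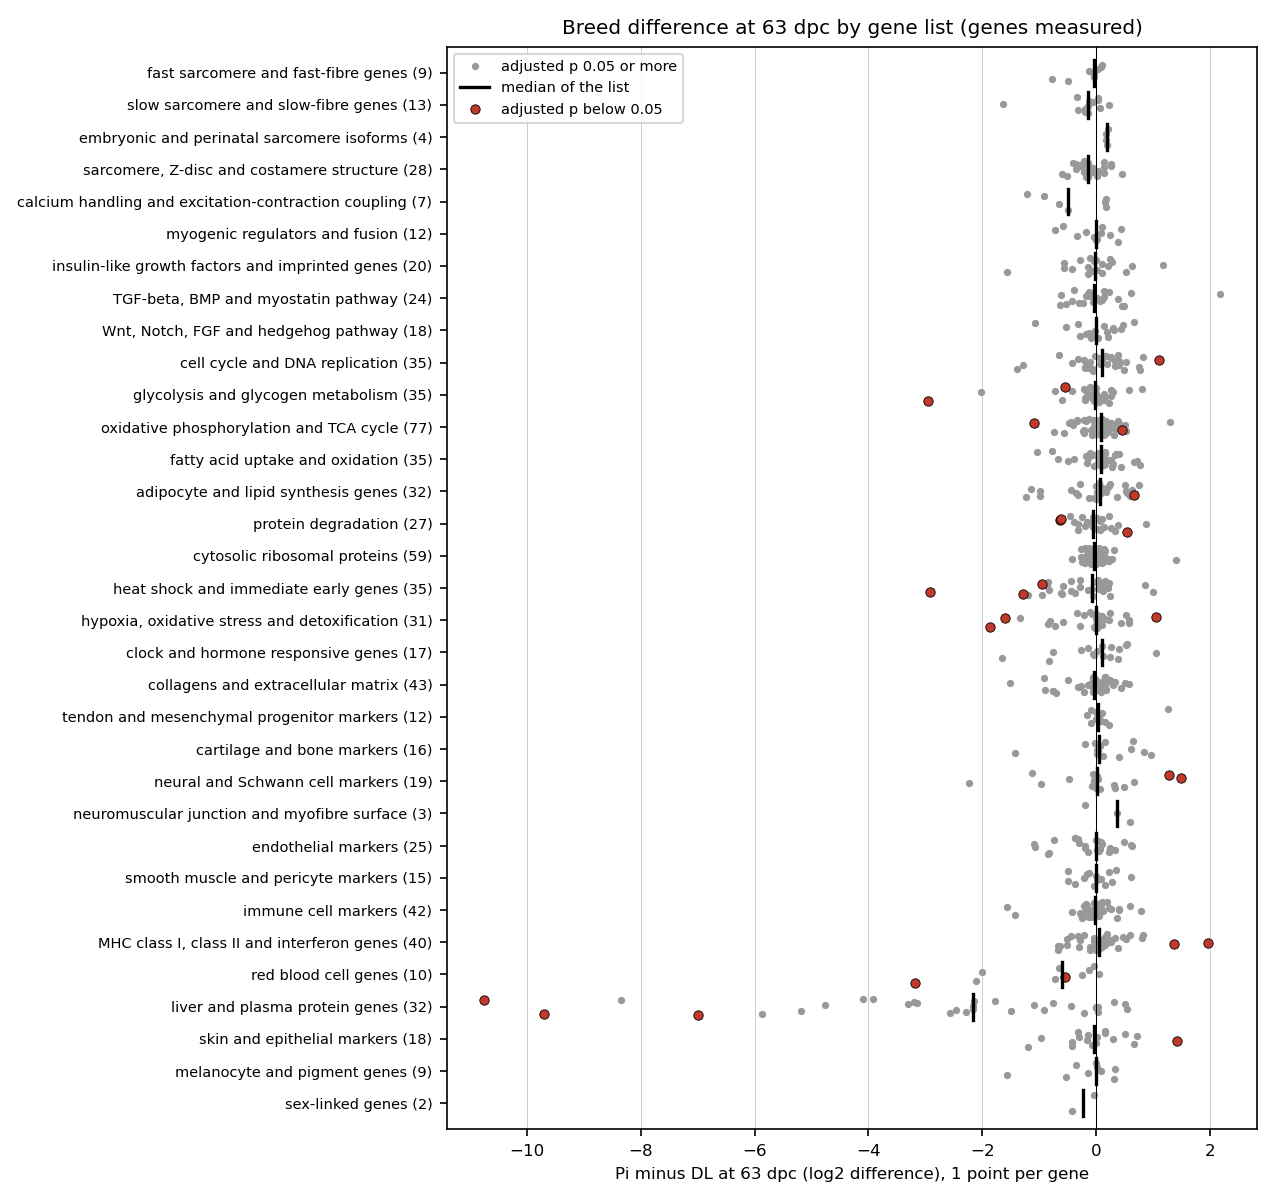
Pi minus DL at 63 dpc (x axis, log2 difference) for every measured gene of 33 lists, with the number of genes in parentheses, the median of each list as a black bar and genes with an adjusted p below 0.05 in red. The liver and plasma protein list extends to -10.76 with a median of -2.17, while the medians of the muscle lists lie between -0.49 and 0.19.

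The largest differences among genes that passed were in 3 genes of secreted liver proteins, which were lower in Pi. SERPINA1 (alpha-1-antitrypsin) measured 2.25, 2.20 and 2.20 in the Pi pools, all at background, against 13.31, 11.82 and 13.81 in the DL pools, and was at least 1592-fold lower in Pi (-10.76 ± 1.86, adjusted p = 0.0073 by limma). AHSG, the fetal plasma protein fetuin-A, measured 2.92, 2.27 and 2.27 in the Pi pools and 12.53, 10.68 and 13.34 in the DL pools (-9.70 ± 1.74, adjusted p = 0.00885 by limma). AFP, the albumin-like protein of fetal plasma, measured 2.19, 3.33 and 2.19 in the Pi pools and 9.92, 7.79 and 10.98 in the DL pools (-6.99 ± 1.21, adjusted p = 0.0073 by limma). For all 3 genes the breeds were far apart in every pool, and DL pool b was the lowest of the DL pools. In bulk samples such as these, fewer cells of a type and less RNA per cell cannot be told apart.

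These 3 genes were the members that passed among 32 measured genes of a liver and plasma protein list. All 3 fell, where 0.99% of all genes did. The median of the list was -2.17, against 0.01 for all 6765 genes, 26 of the 32 were lower in Pi, and 13 had an unadjusted p below 0.05, all 13 lower in Pi, against 16.8% of all genes in either direction. The Pi pools lay below every DL pool for 18 of the 32, against 11.6% of all genes. The mean log2 intensity of the list was 3.21, 3.14 and 3.18 in Pi pools a, b and c, and 5.99, 4.87 and 6.96 in DL pools a, b and c. Of the 32 genes, 14, 8 and 13 exceeded background in the Pi pools, and 27, 23 and 27 in the DL pools.

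Several further members had wide gaps that missed the threshold in the fit over 24 arrays. ALB (albumin) measured 2.32 in each Pi pool and 8.38, 7.98 and 8.21 in the DL pools (-5.87 ± 1.80, adjusted p = 0.128 by limma), the Pi values lying at or next to background. TF (transferrin) measured 2.16, 2.12 and 2.12 in the Pi pools, all at background, and 10.54, 9.10 and 11.80 in the DL pools, at least 282-fold lower in Pi (-8.35 ± 2.20, adjusted p = 0.0712 by limma). The standard errors of these genes also carried the spread of the other groups, since ALB alone ranged from 2.19 to 14.54 among the adult Pi pools. With the 6 arrays of 63 dpc alone ALB passed (adjusted p = 0.00109 by limma). With the 18 fetal arrays alone 11 of the 32 passed, all lower in Pi, namely AFP, AHSG, ALB, APOC3, APOE, GC, ITIH2, SERPINA1, TF, TTR and VTN.

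The liver genes differed among DL pools as well. APOH, AMBP and APOA2 measured 2.30, 1.99 and 2.09 in DL pool b, where all 3 were at background, but 5.19 or more in DL pools a and c. With DL pools a and c both left out, an alternative added after the data were seen, SERPINA1 still differed by -9.60 and AHSG by -8.19, but their adjusted p-values were 0.268 and 0.35 by limma, and 0 of the 32 genes passed. That setting, with 1 DL pool of 63 dpc assumed to vary like the other groups, left 59 probe sets, 20 of them among the 329. At the other stages the list mean was 3.44 to 3.70 in Pi and 3.40 to 4.48 in DL at 35 dpc, and 3.11 to 3.16 in Pi and 3.06 to 3.93 in DL at 91 dpc. Among adults it was 3.72, 10.46 and 3.83 in Pi pools a, b and c, and 4.51 to 5.74 in DL. The part of liver tissue in these values was not tested.

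AGT (angiotensinogen), another secreted liver protein that was not on the list, measured 2.14, 2.14 and 2.42 in the Pi pools and 5.92, 4.79 and 6.92 in the DL pools (-3.65 ± 0.47, adjusted p = 0.00123 by limma). Its pools followed the same order within DL as those of SERPINA1. In adult Pi pools a, b and c AGT measured 9.3, 11.12 and 9.71, and SERPINA1 measured 3.75, 11.13 and 2.23. In adult DL pools a, b and c AGT measured 9.4, 9.16 and 9.19, and SERPINA1 measured 7.05, 5.08 and 6.29. AGT was thus high in adult Pi pools a and c, where SERPINA1 was low. NPG4 (protegrin, an antimicrobial peptide of pig neutrophils) measured 2.53, 2.33 and 2.90 in the Pi pools and 5.17, 4.02 and 5.80 in the DL pools (-2.41 ± 0.38, adjusted p = 0.0048 by limma). Of its 5 other probe sets none passed, and their differences lay between -2.24 and -0.01. The largest fall among probe sets with no gene symbol had the same pattern: the probe set Ssc.7175.1.S1_at measured 2.18, 2.11 and 2.08 in the Pi pools, all at background, and 10.20, 7.96 and 11.37 in the DL pools, at least 181-fold lower in Pi (-7.72 ± 1.70, adjusted p = 0.0329 by limma).

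**Figure D2:**
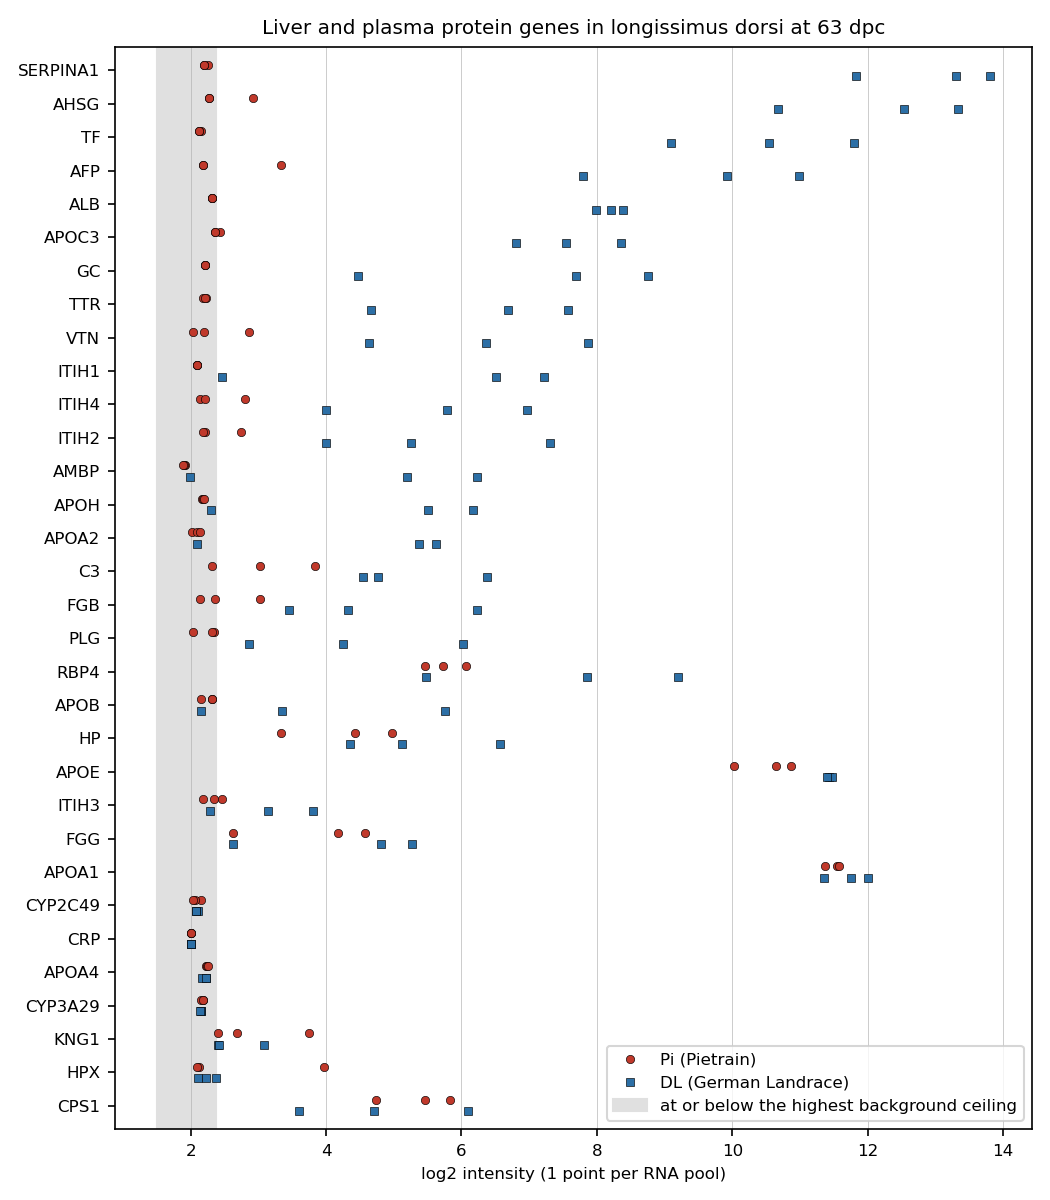
Log2 intensity of the 32 liver and plasma protein genes in each pool at 63 dpc, Pi as red circles above DL as blue squares, with the grey band ending at the highest background level of the 6 arrays, 2.38. From SERPINA1 down to ITIH2 every Pi pool lies left of every DL pool, while CRP, APOA4, CYP2C49 and CYP3A29 are at background in both breeds.

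AHSP and FECH, of a list of red blood cell genes, were lower in Pi. AHSP, the chaperone of free alpha-globin, measured 4.22, 4.69 and 4.78 in the Pi pools and 7.33, 7.53 and 8.38 in the DL pools (-3.18 ± 0.68, adjusted p = 0.0268 by limma). FECH, the enzyme of the last step of haem synthesis, measured 9.23, 9.41 and 9.21 in the Pi pools and 9.82, 9.77 and 9.86 in the DL pools (-0.54 ± 0.10, adjusted p = 0.014 by limma). The pools of the breeds did not overlap for either gene. Of 10 measured genes of the list these 2 fell, where 0.99% of all genes did, and none rose. At an unadjusted p below 0.05 there were 6 of the 10, all lower in Pi, against 16.8% of all genes in either direction. The Pi pools lay below every DL pool for 7 of the 10, against 11.6% of all genes. The list median was -0.60.

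The globin and haem genes that did not pass give the range of this list. ALAS2, the first enzyme of haem synthesis in red cells, measured 7.17, 7.10 and 7.77 in the Pi pools and 9.73, 8.76 and 9.89 in the DL pools (-2.11 ± 0.76, adjusted p = 0.21 by limma). HBB (beta-globin) measured 8.69, 8.96 and 9.07 in the Pi pools and 9.30, 9.26 and 8.88 in the DL pools (-0.24 ± 0.28, adjusted p = 0.946 by limma). With the 18 fetal arrays alone ALAS2 and HBM passed too. AHSP passed in 1 of the 6 fits that leave out a pool (adjusted p 0.0439 to 0.102 by limma), and FECH in 3 (adjusted p 0.0218 to 0.0636 by limma). The liver list moved with this one, its means being those given above, and its part in the red cell genes was not tested.

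FOS and JUN, immediate early genes whose transcription follows within minutes of a stimulus, and the heat shock gene DNAJB1 were lower in Pi. FOS, a subunit of the transcription factor AP-1, measured 6.68, 7.75 and 7.88 in the Pi pools and 10.26, 10.16 and 10.65 in the DL pools, 7.57-fold lower in Pi (-2.92 ± 0.32, adjusted p = 0.000572 by limma). Its partner JUN measured 10.62, 10.48 and 10.69 in the Pi pools and 11.56, 11.59 and 11.47 in the DL pools (-0.95 ± 0.20, adjusted p = 0.0228 by limma). DNAJB1, a stress-inducible partner of the HSP70 chaperones, measured 7.66, 7.55 and 7.49 in the Pi pools and 8.80, 8.58 and 9.15 in the DL pools (-1.28 ± 0.29, adjusted p = 0.0388 by limma). No pool of one breed reached a pool of the other for these 3 genes.

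Of 35 measured heat shock and immediate early genes these 3 fell, where 0.99% of all genes did. None rose, and the list median was -0.07. At an unadjusted p below 0.05, 11 were lower and 4 higher in Pi, so 15 of 35 against 16.8% of all genes. Members of higher value in Pi that did not pass included FOSL2 (1.0) and IER3 (0.86). BTG2, an antiproliferative early gene, measured 9.33, 9.30 and 9.30 in the Pi pools and 10.57, 10.37 and 10.56 in the DL pools (-1.19 ± 0.31, adjusted p = 0.07 by limma). With the 18 fetal arrays alone 9 passed, all lower in Pi, the further ones being BTG2, CYR61, DNAJA1, DUSP1, GADD45G and HSPH1. The constitutive chaperones HSP90AB1 and HSPA8 differed by 0.05 and 0.12, and neither passed.

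FOS passed in each of the 6 fits that leave out a pool, JUN in none of them (adjusted p 0.0506 to 0.0882 by limma) and DNAJB1 in 1 (0.0418 to 0.146). FOS also passed with DL pool b as the only DL pool of 63 dpc, at -2.73 (adjusted p = 0.0205 by limma). At 91 dpc FOS was again lower in Pi (-3.02, adjusted p = 0.000172 by limma), with 8.81, 9.15 and 9.23 in the Pi pools and 12.14, 12.11 and 12.01 in the DL pools. At 35 dpc it measured 6.58, 6.51 and 7.02 in the Pi pools and 6.28, 6.41 and 6.13 in the DL pools, and the breed difference at 63 dpc minus that at 35 dpc was -3.35 (adjusted p = 0.000626 by limma).

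Among genes of energy metabolism FBP2 stood out. FBP2, the muscle fructose-bisphosphatase that returns carbon towards glycogen, measured 3.30, 3.01 and 3.23 in the Pi pools and 6.22, 6.12 and 6.08 in the DL pools, 7.76-fold lower in Pi (-2.96 ± 0.27, adjusted p = 8.08e-05 by limma). The pools of each breed lay within 0.3 of one another, and the breeds were apart in every pool. FBP2 was highest in adults of both breeds. In Pi it averaged 3.95 ± 0.43 at 35 dpc, 3.18 ± 0.15 at 63 dpc, 7.88 ± 0.58 at 91 dpc and 12.83 ± 0.08 in adults (SD, n = 3 each). In DL it averaged 3.61 ± 0.48 at 35 dpc, 6.14 ± 0.07 at 63 dpc, 8.71 ± 0.21 at 91 dpc and 12.85 ± 0.30 in adults (SD, n = 3 each). At 63 dpc the level in Pi was thus no higher than at 35 dpc, while that in DL lay between its 35 and 91 dpc levels. The breed difference at 63 dpc differed from that at 35 dpc by -3.30 (adjusted p = 0.000221 by limma) and from that at 91 dpc by -2.13 (adjusted p = 0.0398 by limma). The value against 91 dpc passed in 1 of the 6 fits that leave out a pool (adjusted p 0.0497 to 0.0798 by limma).

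FBP2 was 1 of 2 members that fell among 35 glycolysis and glycogen genes, where 0.99% of all genes fell. The other was UGP2, which makes UDP-glucose for glycogen and measured 11.01, 10.95 and 10.91 in the Pi pools and 11.64, 11.30 and 11.60 in the DL pools (-0.55 ± 0.11, adjusted p = 0.0194 by limma). No glycolysis gene rose, and the list median was -0.02. FBP2 passed in all 6 fits that leave out a pool, in the fit on the 6 arrays alone (adjusted p = 0.00371 by limma) and with DL pool b as the only DL pool (-2.94, adjusted p = 0.00341 by limma). UGP2 passed in 2 of the 6 fits that leave out a pool (adjusted p 0.00882 to 0.0978 by limma).

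Few mitochondrial genes differed. Of 77 genes of oxidative phosphorylation and the citrate cycle 1 rose and 1 fell, with a median of 0.08. These shares were close to those of all genes, of which 0.931% rose and 0.99% fell. NDUFS6, a subunit of respiratory complex I, measured 8.60, 7.95 and 7.94 in the Pi pools and 9.46, 9.24 and 9.05 in the DL pools (-1.09 ± 0.16, adjusted p = 0.00379 by limma), while its second probe set, near background, did not differ. DLST, of the oxoglutarate dehydrogenase complex, measured 10.20, 10.39 and 10.13 in the Pi pools and 9.55, 9.87 and 9.91 in the DL pools (0.46 ± 0.11, adjusted p = 0.0424 by limma), and passed in 1 of the 6 fits that leave out a pool. TOMM22, a receptor of the import pore in the outer mitochondrial membrane, measured 11.33, 10.92 and 11.04 in the Pi pools and 9.70, 10.01 and 9.59 in the DL pools (1.33 ± 0.17, adjusted p = 0.00123 by limma). ME3, a mitochondrial malic enzyme, measured 7.0, 6.94 and 6.54 in the Pi pools and 5.75, 4.87 and 5.81 in the DL pools (1.35 ± 0.26, adjusted p = 0.0141 by limma). Both were higher in every Pi pool than in any DL pool. Of 35 genes of fatty acid uptake and oxidation 0 passed by limma, and the median was 0.08. An unadjusted p below 0.05 was found for 7 of the 35, against 16.8% of all genes.

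Lipid genes held 1 member that rose. ELOVL6, which lengthens long-chain fatty acids, measured 10.21, 10.22 and 10.09 in the Pi pools and 9.70, 9.65 and 9.14 in the DL pools (0.67 ± 0.16, adjusted p = 0.0495 by limma). It was the only one of 32 adipocyte and lipid synthesis genes to pass, where 1.92% of all genes did. It passed in 1 of the 6 fits that leave out a pool (adjusted p 0.0499 to 0.199 by limma). It was higher in Pi at 91 dpc by 1.14 (adjusted p = 0.00138 by limma) and in adults by 1.38 (adjusted p = 6.49e-05 by limma). Its 3 other probe sets did not pass, and 1 of them had a difference of the opposite sign, -2.04.

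**Figure D3:**
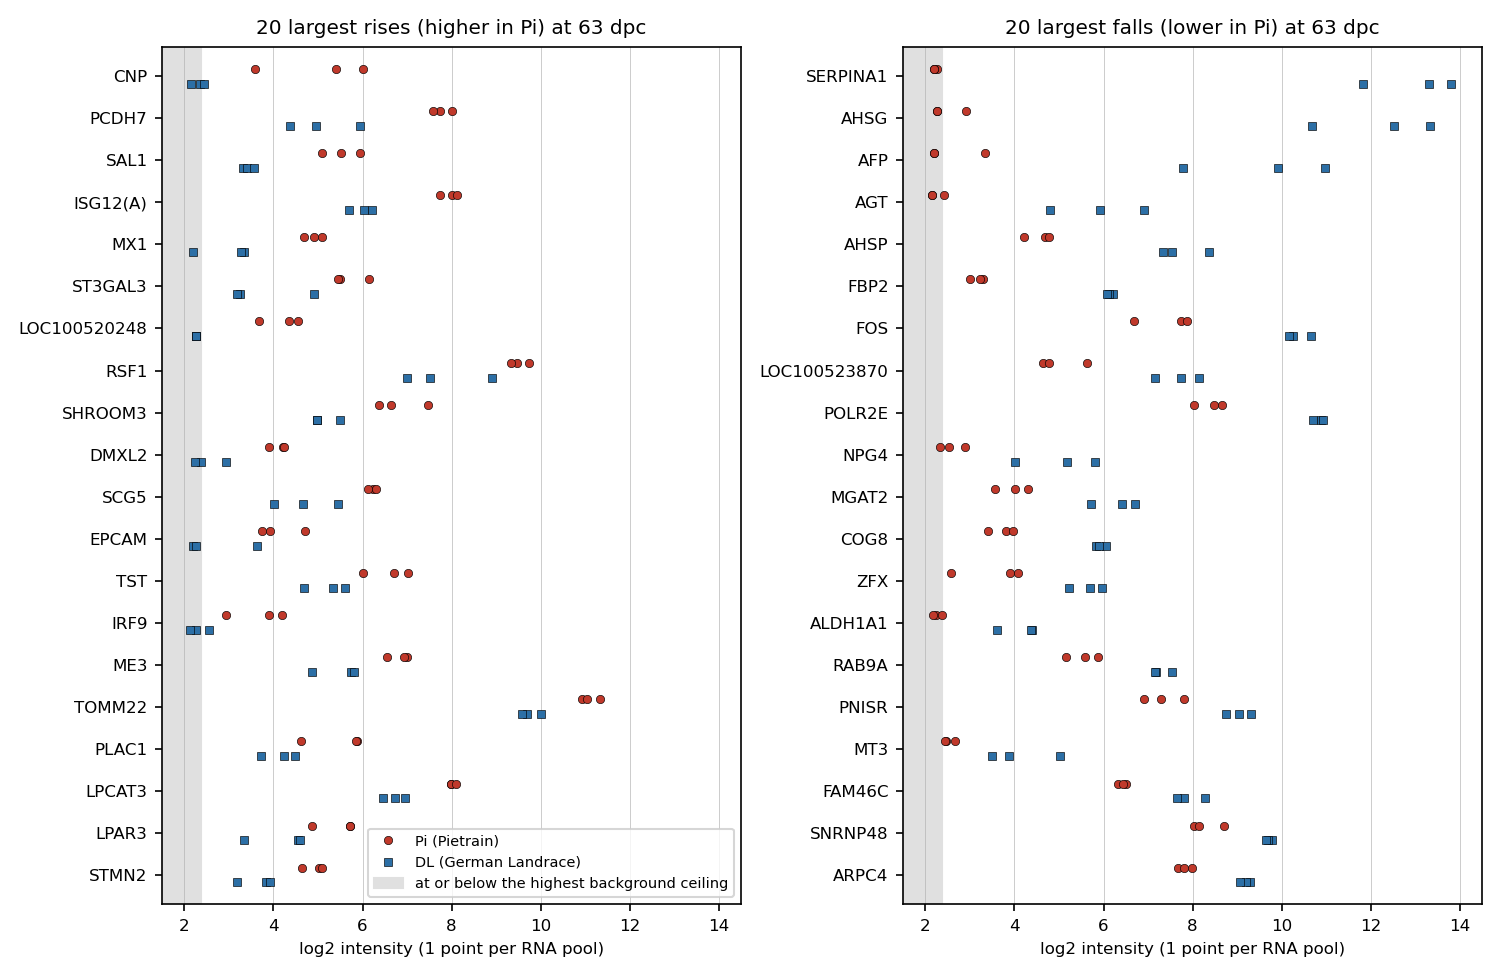
Log2 intensity in each pool at 63 dpc of the 20 genes with the largest rises (left panel) and the 20 with the largest falls (right panel) among genes that passed, Pi as red circles above DL as blue squares, with the grey band ending at the highest background level of the 6 arrays. The breeds do not overlap for any of the 40 genes, as the choice of genes requires, and several of the rises have DL pools inside the grey band.

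Among genes that respond to interferon MX1, ISG12(A) and IRF9 were higher in Pi. MX1, an antiviral GTPase, measured 4.91, 5.10 and 4.69 in the Pi pools and 3.33, 3.28 and 2.20 in the DL pools (1.96 ± 0.34, adjusted p = 0.0073 by limma). ISG12(A), an interferon-inducible mitochondrial protein, measured 8.0, 8.12 and 7.73 in the Pi pools and 6.21, 5.69 and 6.03 in the DL pools (1.97 ± 0.27, adjusted p = 0.00213 by limma). IRF9, the DNA-binding part of the factor that acts downstream of type I interferon receptors, measured 3.89, 2.93 and 4.20 in the Pi pools and 2.26, 2.12 and 2.55 in the DL pools (1.36 ± 0.31, adjusted p = 0.0388 by limma). In each case the lowest Pi pool exceeded the highest DL pool, and 2 of the 3 DL pools were at background for IRF9.

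MX1 and IRF9 were the members that passed among 40 genes of the MHC and interferon list. Both rose, where 0.931% of all genes did. The median of the list was 0.04, so most of its genes did not move with them. MX1 and ISG12(A) passed in all 6 fits that leave out a pool, and IRF9 in 1 (adjusted p 0.0127 to 0.162 by limma). MX1 measured 6.74, 6.14 and 6.22 in Pi and 6.58, 5.88 and 6.30 in DL at 35 dpc, and the difference at 63 dpc minus that at 35 dpc was 1.85 (adjusted p = 0.0429 by limma). Of 42 immune cell markers 0 passed by limma, and the median was -0.02. An unadjusted p below 0.05 was found for 3 of the 42, against 16.8% of all genes.

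Adhesion, neural and epithelial genes made up part of the other rises. PCDH7, a protocadherin of the cell surface, measured 8.02, 7.73 and 7.59 in the Pi pools and 5.95, 4.38 and 4.95 in the DL pools (2.68 ± 0.49, adjusted p = 0.00954 by limma). Its probe sets disagreed: a second one differed by 0.02, and the third, at background in every Pi pool, was lower in Pi by -0.78 (adjusted p = 0.047 by limma). CNP, an enzyme of myelin, measured 3.58, 6.0 and 5.41 in the Pi pools and 2.35, 2.43 and 2.14 in the DL pools (2.69 ± 0.51, adjusted p = 0.0131 by limma). SCG5, a chaperone of neuroendocrine secretory granules, measured 6.23, 6.12 and 6.31 in the Pi pools and 5.46, 4.67 and 4.02 in the DL pools (1.5 ± 0.23, adjusted p = 0.00385 by limma). Every Pi pool was above every DL pool for these genes.

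STMN2, a microtubule regulator of growing neurites, measured 5.02, 5.10 and 4.63 in the Pi pools and 3.83, 3.92 and 3.18 in the DL pools (1.28 ± 0.22, adjusted p = 0.0073 by limma). Its second probe set ran the other way, by -1.13, and did not pass. STMN2 and SCG5 were the 2 members that rose among 19 neural and Schwann cell markers, where 0.931% of all genes rose. The list median was 0.01. MBP, a myelin protein of the same list, measured 4.25, 3.56 and 2.93 in the Pi pools and 5.23, 5.75 and 6.43 in the DL pools (-2.23 ± 0.72, adjusted p = 0.155 by limma), opposite in sign to CNP. EPCAM, an epithelial adhesion protein, measured 4.71, 3.75 and 3.93 in the Pi pools and 2.20, 2.26 and 3.63 in the DL pools (1.43 ± 0.31, adjusted p = 0.0295 by limma). It was the only one of 18 skin and epithelial markers to pass, where 1.92% of all genes did. For EPCAM 2 of the 3 DL pools were at background.

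The remaining large rises had varied roles. SAL1, a salivary lipocalin of the pig, measured 5.51, 5.10 and 5.95 in the Pi pools and 3.32, 3.40 and 3.57 in the DL pools (2.10 ± 0.47, adjusted p = 0.0365 by limma), and passed in none of the 6 fits that leave out a pool (adjusted p 0.0573 to 0.13 by limma). ST3GAL3, a sialyltransferase of the Golgi, measured 5.49, 6.15 and 5.46 in the Pi pools and 3.25, 4.90 and 3.17 in the DL pools (1.93 ± 0.42, adjusted p = 0.0315 by limma), and passed in 1 of the 6 (adjusted p 0.00374 to 0.142 by limma). LOC100520248, a gene with no named role, measured 3.67, 4.35 and 4.54 in the Pi pools and 2.27, 2.27 and 2.26, all at background, in the DL pools, at least 3.64-fold higher in Pi (1.92 ± 0.30, adjusted p = 0.00475 by limma). The next in size were RSF1 (chromatin remodelling, 1.72), SHROOM3 (apical cell shape, 1.68), DMXL2 (vesicle acidification, 1.61), TST (sulphur metabolism, 1.38), PLAC1 (placental development, 1.31), LPCAT3 (phospholipid remodelling, 1.29) and LPAR3 (a lysophosphatidic acid receptor, 1.28). Of 2 other probe sets of RSF1, 1 measured above background in every pool and differed by -0.52, and the other was at background in both breeds. Of these 7 genes SHROOM3 passed in all 6 fits that leave out a pool.

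The remaining large falls included genes of RNA synthesis and processing and of the Golgi. POLR2E, a subunit shared by the nuclear RNA polymerases, measured 8.03, 8.49 and 8.65 in the Pi pools and 10.88, 10.70 and 10.94 in the DL pools, 5.46-fold lower in Pi (-2.45 ± 0.41, adjusted p = 0.0058 by limma). SNRNP48, a protein of the minor spliceosome, measured 8.71, 8.04 and 8.15 in the Pi pools and 9.78, 9.70 and 9.66 in the DL pools (-1.41 ± 0.24, adjusted p = 0.00649 by limma). MGAT2, a glycan-building enzyme of the Golgi, measured 4.31, 3.57 and 4.01 in the Pi pools and 6.70, 5.72 and 6.41 in the DL pools (-2.32 ± 0.51, adjusted p = 0.0321 by limma). All 3 were separated between the breeds, and MGAT2 passed in 1 of the 6 fits that leave out a pool.

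RAB9A, a GTPase of transport between late endosomes and the Golgi, measured 5.87, 5.58 and 5.16 in the Pi pools and 7.17, 7.53 and 7.15 in the DL pools (-1.75 ± 0.29, adjusted p = 0.0058 by limma). COG8, of the complex that tethers vesicles at the Golgi, measured 3.81, 3.96 and 3.40 in the Pi pools and 5.83, 6.06 and 5.90 in the DL pools (-2.21 ± 0.44, adjusted p = 0.0168 by limma). Second probe sets of RAB9A and COG8 differed by less than 0.1 and did not pass. ARPC4, an actin-nucleating subunit, differed by -1.37 ± 0.23 (adjusted p = 0.0058 by limma), while its second probe set differed by 0.54 and did not pass. LOC100523870, with no named role, differed by -2.67, PNISR by -1.70 and FAM46C, a poly(A) polymerase, by -1.50.

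ALDH1A1, which makes retinoic acid, measured 2.24, 2.18 and 2.38 in the Pi pools and 3.60, 4.39 and 4.37 in the DL pools (-1.86 ± 0.43, adjusted p = 0.0388 by limma). MT3, a metallothionein, measured 2.47, 2.45 and 2.67 in the Pi pools and 5.02, 3.88 and 3.49 in the DL pools (-1.60 ± 0.37, adjusted p = 0.0423 by limma). Both fell among 31 genes of hypoxia, oxidative stress and detoxification, where NQO1, a quinone reductase, rose (1.05 ± 0.23, adjusted p = 0.0288 by limma). Of all genes 0.99% fell and 0.931% rose. ALDH1A1, MT3 and NQO1 each passed in 1 of the 6 fits that leave out a pool. ZFX, an X-linked transcription factor, measured 2.57, 4.08 and 3.90 in the Pi pools and 5.96, 5.69 and 5.23 in the DL pools (-2.11 ± 0.50, adjusted p = 0.047 by limma) and passed in none of the 6. The Y-linked EIF1AY measured 8.03, 8.0 and 8.18 in the Pi pools and 8.36, 9.21 and 7.91 in the DL pools, so its transcript was above background in every pool of both breeds.

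Of 27 protein degradation genes 1 rose and 2 fell, where 0.931% of all genes rose and 0.99% fell. CAPN1, the calcium-activated protease mu-calpain, rose (0.54 ± 0.12, adjusted p = 0.0268 by limma). PSMC1 measured 10.22, 10.13 and 9.88 in the Pi pools and 10.78, 10.65 and 10.71 in the DL pools (-0.63 ± 0.10, adjusted p = 0.00385 by limma), and PSMD1 fell by 0.61 (adjusted p = 0.02 by limma). Both belong to the regulatory particle of the proteasome. Counting every measured proteasome subunit, a group chosen after its values were seen, 5 of 33 fell and none rose, where 0.99% of all genes fell. The 5 were PSMC1, PSMC2, PSMD1, PSMD4 and PSMD5, and the median of the 33 was 0.02. PSMC1 passed in all 6 fits that leave out a pool, PSMC2 in none, PSMD5 in 1, and PSMD1 and PSMD4 in 2 each. Of 59 cytosolic ribosomal protein genes 0 passed by limma, and the median was -0.03. An unadjusted p below 0.05 was found for 13 of the 59, against 16.8% of all genes.

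No contractile or structural gene of muscle on the lists passed at this stage by limma. MYL1, the fast myosin light chain, measured 15.50, 15.51 and 15.49 in the Pi pools and 15.53, 15.59 and 15.45 in the DL pools, a difference of -0.03 with a 95% interval of -0.14 to 0.09. MYH7, the slow myosin heavy chain, measured 14.43, 14.39 and 14.34 in the Pi pools and 14.37, 14.42 and 14.20 in the DL pools, a difference of 0.06 with an interval of -0.13 to 0.25. MYH2, a fast myosin heavy chain, measured 8.59, 7.58 and 8.27 in the Pi pools and 8.90, 8.92 and 8.95 in the DL pools (-0.77 ± 0.30, adjusted p = 0.251 by limma). For MYH2 all Pi pools lay below all DL pools, and 25.7% of all genes had pools that did not overlap.

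By limma 0 of 9 fast-fibre, 0 of 13 slow-fibre, 0 of 4 embryonic and perinatal, 0 of 28 sarcomere and Z-disc and 0 of 7 calcium-handling genes passed. At an unadjusted p below 0.05 there were 3, 3, 0, 5 and 3 of them, against 16.8% of all genes, and all of these were lower in Pi. The pools did not overlap for 3, 6, 2, 5 and 4 of them, against 25.7% of all genes. The medians were -0.04, -0.14, 0.19, -0.13 and -0.49. PLN (phospholamban, the brake of the calcium pump of slow fibres) measured 5.01, 5.58 and 5.61 in the Pi pools and 7.26, 6.48 and 7.36 in the DL pools (-1.63 ± 0.42, adjusted p = 0.0621 by limma). RYR1, the calcium release channel in which many Pietrain pigs carry the halothane allele, measured 12.63, 12.41 and 12.47 in the Pi pools and 12.32, 12.35 and 12.31 in the DL pools (0.18 ± 0.16, adjusted p = 0.853 by limma). With the 18 fetal arrays alone TRIM55 passed among these lists, and with array weights ATP2A2, PLN, TRIM55 and UNC45B did, all lower in Pi.

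Genes that control muscle growth gave no call either. Of 12 myogenic regulators 0 passed by limma, and the median was 0. At an unadjusted p below 0.05 there were 4 of the 12, 3 lower and 1 higher in Pi, above the 16.8% of all genes. MYF6, a myogenic factor found in differentiated fibres, measured 8.93, 8.86 and 9.13 in the Pi pools and 9.68, 9.62 and 9.76 in the DL pools (-0.72 ± 0.25, adjusted p = 0.191 by limma). MSTN (myostatin, the inhibitor of muscle growth) measured 6.95, 7.63 and 7.53 in the Pi pools and 7.5, 7.64 and 7.29 in the DL pools (-0.11 ± 0.50, adjusted p = 1.0 by limma), with a 95% interval of -1.17 to 0.96. A dimmer probe set of MSTN differed by -0.90 and did not pass. With array weights MYF6, SIX4 and ID1 passed, the first 2 lower and ID1 higher in Pi.

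Of 20 insulin-like growth factor and imprinted genes 0 passed by limma, and the median was -0.02. An unadjusted p below 0.05 was found for 4 of the 20, against 16.8% of all genes. IGF1 measured 2.75, 4.01 and 4.96 in the Pi pools and 5.84, 4.97 and 5.64 in the DL pools (-1.57 ± 0.46, adjusted p = 0.106 by limma). Pi pool a was the lowest, and Pi pool c, at 4.96, all but reached DL pool b, at 4.97. Other probe sets of IGF1 differed by 0.43 and -0.14, with pools that overlapped, and did not pass. IGF2 measured 14.76, 14.43 and 14.42 in the Pi pools and 14.54, 14.44 and 14.57 in the DL pools, a difference of 0.02 with a 95% interval of -0.29 to 0.33. Of its 12 other probe sets none passed. IGFBP5, a binding protein of these factors, differed by 0.63 ± 0.25 (adjusted p = 0.285 by limma). GRB10, an imprinted adaptor that restrains insulin signalling, measured 9.23, 8.98 and 9.10 in the Pi pools and 8.35, 8.75 and 8.61 in the DL pools (0.53 ± 0.14, adjusted p = 0.0759 by limma), and passed with the 18 fetal arrays alone.

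Of 24 TGF-beta and myostatin pathway genes 0 passed by limma, with 4 at an unadjusted p below 0.05, against 16.8% of all genes. Of 18 Wnt, Notch, FGF and hedgehog genes 0 passed, with 1 at an unadjusted p below 0.05. SMAD1 differed by -0.62 ± 0.15 (adjusted p = 0.0504 by limma) and SMAD3 by 2.18 ± 0.56 (adjusted p = 0.0649 by limma), the closest to the threshold among these. Of 35 cell cycle and replication genes 1 rose, where 0.931% of all genes did. At an unadjusted p below 0.05 there were 5 of the 35, all higher in Pi, against 16.8% of all genes in either direction, so no excess. The gene that rose was MCM5, a subunit of the replicative helicase, with 8.24, 8.25 and 8.35 in the Pi pools and 7.53, 7.34 and 6.66 in the DL pools (1.1 ± 0.19, adjusted p = 0.00649 by limma). Other probe sets of MCM5 differed by 0.52 and 0.32 and did not pass. TOP2A, another gene of dividing cells, differed by 0.18 ± 0.23 (adjusted p = 0.972 by limma), and the list median was 0.10.

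Of 42 genes in a panel for muscle, growth and meat quality 36 were measured, and 0 passed by limma. An unadjusted p below 0.05 was found for 4 of the 36, against 16.8% of all genes. Lists of other cell types besides those above gave no call at the threshold: 0 of 43 collagen and matrix genes, 0 of 25 endothelial, 0 of 15 smooth muscle, 0 of 12 tendon and 0 of 16 cartilage markers passed by limma, and 6, 2, 4, 1 and 2 had an unadjusted p below 0.05. Only the smooth muscle count was above the 16.8% of all genes, and the medians of these lists lay between -0.03 and 0.05. The same held for 9 melanocyte genes (1 at an unadjusted p below 0.05), and for 3 genes of the neuromuscular junction and 2 sex-linked genes (0 each). Clock and hormone responsive genes, which stand for no cell type, gave 0 of 17 that passed by limma. At an unadjusted p below 0.05 there were 7 of the 17, 3 lower and 4 higher in Pi, above the 16.8% of all genes.

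**Figure D4:**
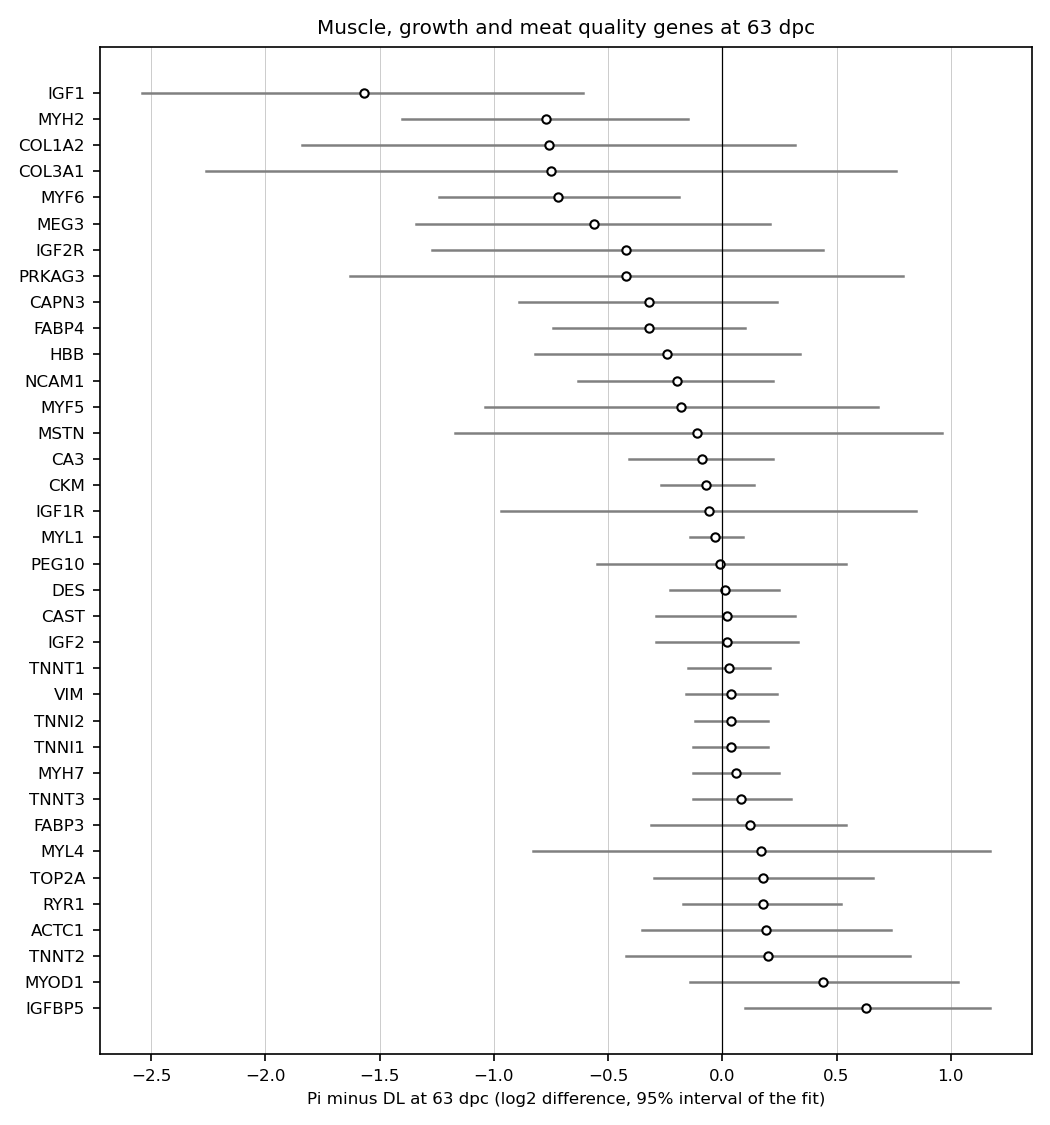
Pi minus DL at 63 dpc (x axis, log2 difference) with the 95% interval of the fit for the 36 measured genes of the muscle, growth and meat-quality panel, sorted from lowest to highest. Open circles mark genes that did not pass, which is all 36, and the narrowest intervals belong to contractile genes such as MYL1, at -0.14 to 0.09.

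The breed difference at 63 dpc was set against those at 35 and 91 dpc, which share no arrays with it. At 35 dpc 966 probe sets passed (4.03%) and at 91 dpc 653 (2.72%). Of the 329 of 63 dpc, 84 also passed at 91 dpc, 25.5% of the 63 dpc calls and 12.9% of the 91 dpc calls, and 82 of the 84 had the same direction. With 35 dpc 51 were shared, 15.5% of the 63 dpc calls and 5.28% of the 35 dpc calls, and 20 of these had the same direction and 31 the opposite one. The sign at 63 dpc was that at 91 dpc for 268 of the 329, and that at 35 dpc for 162. Tested as a difference of differences, 793 probe sets (3.3%) and 351 genes (5.19%) had another breed difference at 63 than at 35 dpc, and 22 probe sets (0.0917%) and 6 genes (0.0887%) another one at 63 than at 91 dpc. Without DL pool a the 793 became 466. The 22 became 14 without Pi pool a, 48 without DL pool b and 35 without DL pool c.

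Some genes kept one direction through the fetal stages. PCBP2, a regulator of mRNA stability and translation, measured 13.32, 13.26 and 13.78 in the Pi pools and 12.21, 12.40 and 12.28 in the DL pools of 63 dpc (1.16 ± 0.20, adjusted p = 0.0073 by limma). It was higher in Pi by 1.04 at 35 dpc, by 1.19 at 91 dpc and by 0.70 in adults, and passed at each of these stages, where 6.33% of the probe sets passed in adults. A dimmer probe set of PCBP2 differed by -0.15 and did not pass. TOMM22 was higher in Pi by 0.85 at 35 dpc and by 0.76 at 91 dpc, and LOC100520248 by 1.79 and by 1.15, all of which passed. PCDH7 was higher in Pi by 3.32 at 91 dpc (adjusted p = 0.0017 by limma) and by 0.72 at 35 dpc (adjusted p = 0.662 by limma).

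Other genes turned between 35 and 63 dpc. POLR2E was higher in Pi at 35 dpc by 2.06 (adjusted p = 0.00658 by limma), with 8.40, 10.70 and 10.79 in the Pi pools and 7.80, 8.10 and 7.81 in the DL pools, and at 91 dpc the breed difference was -2.06 (adjusted p = 0.0101 by limma). The difference at 63 dpc minus that at 35 dpc was -4.50 (adjusted p = 0.000414 by limma). PSMD4, the ubiquitin receptor of the proteasome, had breed differences of 1.85 at 35 dpc, -1.08 at 63 dpc and -1.41 at 91 dpc. TAGLN2 (an actin-binding protein), SNRNP48, NDUFS6 and NDFIP1 followed the same course, and NUCB1, of the Golgi, the opposite one. These 7 are the genes that passed at each of the 3 fetal stages with opposite signs at 35 and 63 dpc. The difference between 63 and 35 dpc passed in all 7, which this choice made nearly certain, so it is no further support. In the fits that leave out a pool the 63 dpc difference of TAGLN2 passed in 0 of 6 (adjusted p 0.0905 to 0.128 by limma), and those of NDFIP1, NUCB1 and PSMD4 in 2 of 6 each.

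**Figure D5:**
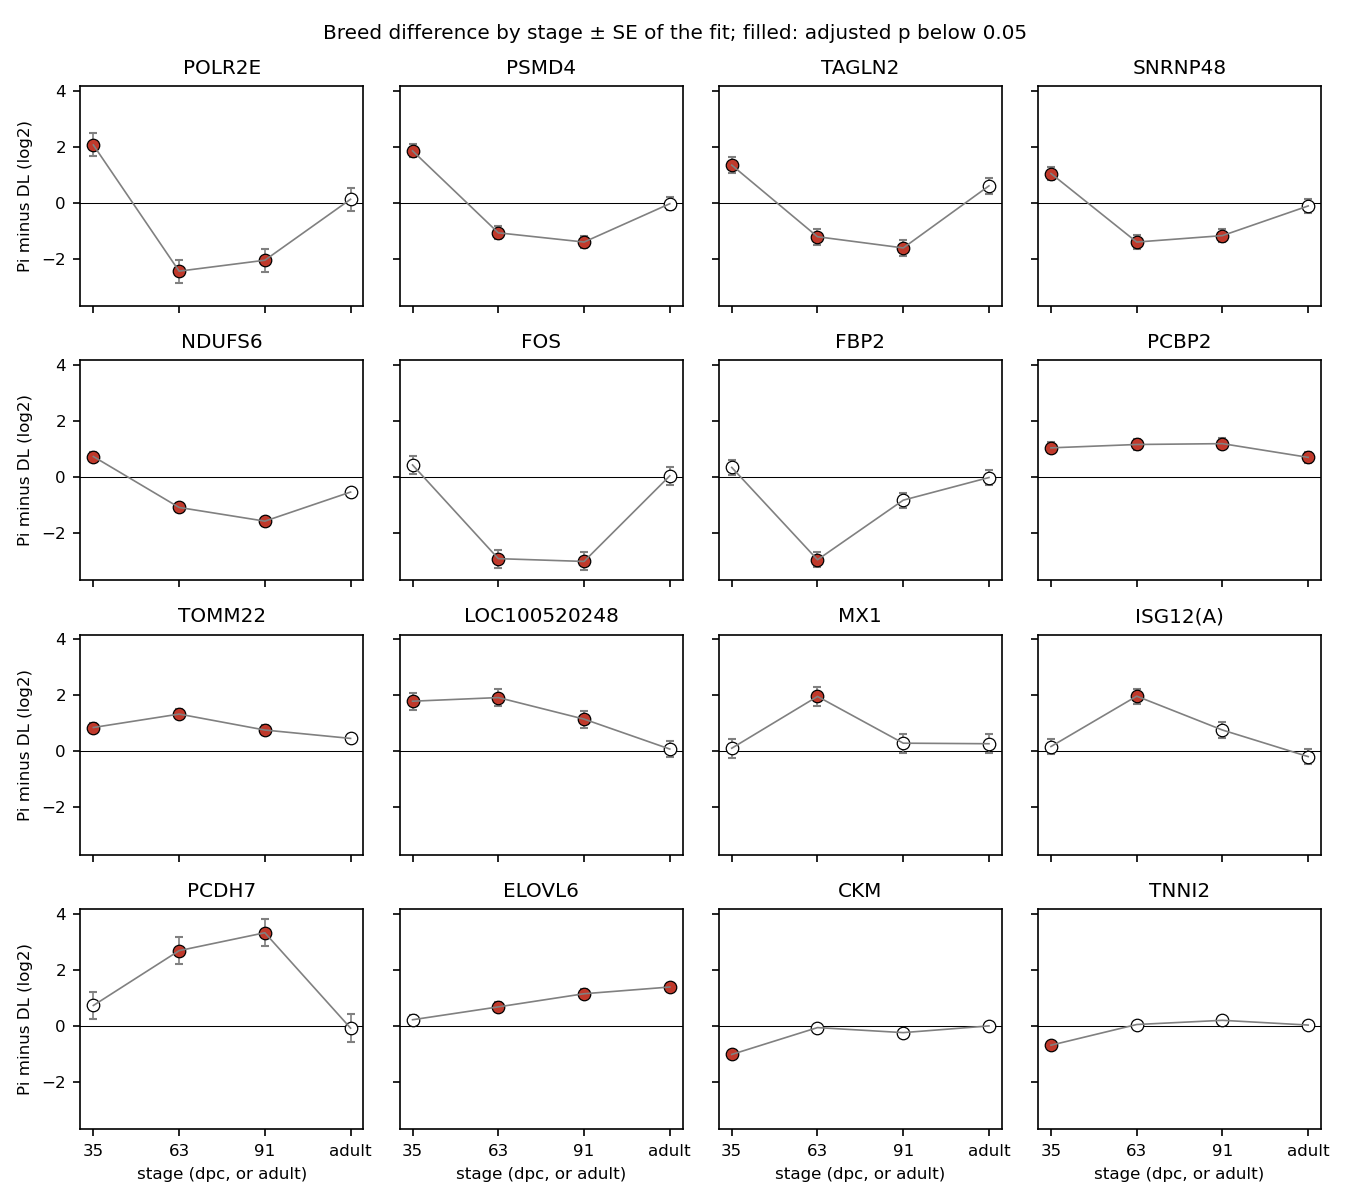
Pi minus DL (y axis, log2 difference ± SE of the fit) at 35, 63 and 91 dpc and in adults for 16 genes, with filled circles where the adjusted p was below 0.05. POLR2E, PSMD4, TAGLN2, SNRNP48 and NDUFS6 change sign between 35 and 63 dpc, PCBP2, TOMM22 and LOC100520248 stay above 0, and CKM and TNNI2 are below 0 at 35 dpc and near 0 at 63 dpc.

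Some genes of the muscle lists had another breed difference at 63 than at 35 dpc, where 5.19% of all genes did. They were 2 of 9 fast-fibre, 1 of 13 slow-fibre, 0 of 4 embryonic and perinatal, 2 of 28 sarcomere and Z-disc and 2 of 7 calcium-handling genes. The shares of the slow-fibre and of the sarcomere and Z-disc lists were close to that of all genes. CKM, muscle creatine kinase, which is on none of these lists, was lower in Pi at 35 dpc (-1.03, adjusted p = 1.29e-05 by limma). At 63 dpc CKM measured 14.96, 14.76 and 14.92 in the Pi pools and 14.84, 14.98 and 15.03 in the DL pools. TNNI2, fast troponin I, was lower in Pi at 35 dpc (-0.70, adjusted p = 4.75e-05 by limma) and differed by 0.04 at 63 dpc. For both the difference between stages passed, with an adjusted p of 0.000987 by limma. The largest value of 63 minus 35 dpc among genes belonged to MMP14, a membrane protease that activates matrix-degrading enzymes, whose breed difference passed at 35 dpc but not at 63 dpc (-1.52, adjusted p = 0.167 by limma). It measured 5.90, 7.75 and 7.43 in Pi and 3.93, 2.27 and 3.44 in DL at 35 dpc, and 5.84, 5.04 and 5.84 in Pi and 7.02, 7.25 and 7.0 in DL at 63 dpc (63 minus 35 dpc -5.33, adjusted p = 0.000606 by limma).

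Against 91 dpc 6 genes had another breed difference. FBP2 and EIF3E, a subunit of a translation initiation factor, had a difference at 63 dpc below that at 91 dpc. FBP2 was lower in Pi at both stages. EIF3E was lower in Pi at 63 dpc, with 12.78, 12.65 and 12.58 in the Pi pools and 13.23, 13.13 and 13.15 in the DL pools (63 minus 91 dpc -0.80, adjusted p = 0.0116 by limma). WDR37, AHCY, LOC100522130 and SLC2A4 had a difference at 63 dpc above that at 91 dpc. WDR37 measured 9.33, 9.30 and 9.26 in the Pi pools and 8.61, 8.48 and 8.60 in the DL pools of 63 dpc (0.73 ± 0.12, adjusted p = 0.0066 by limma) and differed by -0.46 at 91 dpc. SLC2A4, the insulin-responsive glucose transporter, was at background in all 6 pools of 63 dpc and lower in Pi at 91 dpc (-2.69, adjusted p = 0.000274 by limma). In the 6 fits that leave out a pool EIF3E and WDR37 passed this test in all, SLC2A4 in 3, LOC100522130 in 2 and AHCY in 1.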

How the data were processed

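The table the authors deposited holds an intensity for each probe set on each array, read here as log2. The submitters' processing notes name GCOS 1.1.1, with no summarisation method given in the sources used here. Base 2 was inferred, since values run between 1.598 and 16.1. The sorted columns were identical, so the authors' table had been quantile-normalised, and each difference is relative to the other probe sets of an array. Symbols came from the platform annotation: 10069 probe sets had 1, 198 several and 13732 none.

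One model of 8 group means was fitted to the 24 arrays with limma 3.58.1 in R 4.3.3 (16 residual and 1.313 prior degrees of freedom, two-sided, threshold 0.05). Where a group lay at background on all its arrays, the fold is a lower bound against the background level of each array. The genes named are the 20 largest rises and 20 largest falls that passed with pools that do not overlap and a group above background, up to 4 passing members per list, the 5 largest differences between stages in each direction, and a panel. Genes outside this rule were chosen after their values were seen. The members, the 33 gene lists and the comparisons were chosen with earlier results of these data known. In simulated data the model recovered 78 of 200 differences of 1 on the log2 scale (39%) and 142 of 200 differences of 2 (71%). It made 3 and 2 false calls in these runs. Genes that did not pass may thus still differ. Alternatives used other sets of arrays, the pool letter as a block, an intensity trend, array weights, a filter on dim probe sets, other scaling, a GAPDH covariate, other probe sets and fits without single pools. No batch or date is recorded in the labels.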

Additional observations from a re-analysis of the deposited data

Results flagged for a closer look

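The breed difference at 63 dpc differed from that at 35 dpc, by limma's test of the difference of differences, for 793 probe sets, and from that at 91 dpc for 22. Values here are the log2 difference (Pi minus DL) at 63 dpc minus that at the other stage, for genes that passed this test.

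Against 35 dpc the value was below 0 for MMP14 (-5.33), POLR2E (-4.50), TMEM38A, a potassium channel of the sarcoplasmic reticulum (-4.15), FOS (-3.35), AGT (-3.31), FBP2 (-3.30), PSMD4 (-2.93), ALDH1A1 (-2.89), RAB9A (-2.62), TAGLN2 (-2.56), SNRNP48 (-2.45), NPG4 (-2.31), DNAJB1 (-1.95), ARPC4 (-1.93), NDUFS6 (-1.82), NDFIP1 (-1.42), FECH (-0.71), PSMC2 (-0.55) and EIF3E (-0.45). TMEM38A measured 4.42, 5.21 and 5.50 in Pi and 2.10, 2.10 and 2.11 in DL at 35 dpc, and 3.76, 4.29 and 6.27 in Pi and 6.53, 5.64 and 5.79 in DL at 63 dpc. Its pools overlapped at 63 dpc, and the breed difference there did not pass.

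Against 35 dpc the value was above 0 for METTL22, a protein methyltransferase (3.67), ST3GAL3 (3.46), GTPBP1 (2.96), CACNB3, a calcium channel subunit (2.70), CLN6 (2.45), TST (2.35), ME3 (2.15), MCM5 (1.93), SHROOM3 (1.90), MX1 (1.85), ISG12(A) (1.80), SCG5 (1.56), STMN2 (1.32), CAPN1 (1.27), NQO1 (1.26) and NUCB1 (1.02). METTL22 measured 4.61, 2.20 and 3.67 in Pi and 5.33, 5.0 and 4.92 in DL at 35 dpc, and 5.30, 3.86 and 3.75 in Pi and 2.11, 2.34 and 2.23 in DL at 63 dpc. A second probe set of METTL22 was above background in every pool of 63 dpc and ran the other way. It differed by -0.36 at 63 dpc and by -0.37 for 63 minus 35 dpc, and passed neither test. STMN2 measured 13.61, 13.94 and 13.61 in Pi and 13.96, 13.64 and 13.72 in DL at 35 dpc, far above its 63 dpc levels. Among the 10 largest of these values MMP14, POLR2E, TMEM38A, FOS, AGT and ST3GAL3 passed in all 6 fits that leave out a pool of 63 dpc, CACNB3 in 2, GTPBP1 in 1, and METTL22 and CLN6 in 0.

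Against 91 dpc the value was below 0 for FBP2 (-2.13) and EIF3E (-0.80), and above 0 for SLC2A4 (2.68), AHCY (1.36), WDR37 (1.19) and LOC100522130 (0.91).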

How the results depend on the processing

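The 329 probe sets of the breed difference at 63 dpc became 11 with the 6 arrays alone (3595 at an unadjusted p below 0.05), 575 with the 18 fetal arrays, 1000 with array weights and 212 after scaling to hybridisation controls (22.2% of calls higher in Pi, against 48.9%), and 163 to 388 when 1 pool was left out, or 59 without DL pools a and c. Deviations from the group means correlated between breeds at r = 0.0605, 0.0603 and -0.0166 for pools a, b and c. Pools of different letters correlated at -0.0994 to 0.0573. With 3 pools a group these values cannot decide whether letters pair the pools, and the labels do not say so. The replicate block by pool letter gave 281 over 24 arrays, and 0 over the 6 arrays by limma (3505 at an unadjusted p below 0.05). For 63 minus 35 dpc the 793 became 2329 with array weights, 7065 after hybridisation scaling (median of all probe sets -0.63, 148 above 0) and 249 without DL pools a and c, with 466 to 700 when 1 pool was left out; the block gave 725. For 63 minus 91 dpc the 22 became 40 with the fetal arrays, 113 with array weights, 36 with a GAPDH 3' minus 5' covariate and 14 to 48 when 1 pool was left out; the block gave 19. An intensity trend and a filter on dim probe sets kept all 3 counts within 1.5 times. Of 61 named genes that passed, 26 passed in all 6 fits that leave out a pool, and 25, 28 and 31 were lost without Pi a, b and c, and 31, 10 and 31 without DL a, b and c; the 18 fetal arrays kept 55, the block 58, the GAPDH covariate 46, hybridisation scaling 38 and the 6 arrays 2. None of these fits reversed the direction of a named gene that passed. The dimmest probe set of a gene had a value of the other sign for ARPC4 (0.54), PCDH7 (-0.78), STMN2 (-1.13) and PCBP2 (-0.15), and gave no direction for ZFX (0.02, at background in both breeds; another probe set of it -0.93) and NDUFS6 (0.00, next to background). Apart from fewer arrays or another probe set by construction, the cause was not tested. The GAPDH difference was 0.82, 0.94 and 0.64 in Pi and 0.76, 0.54 and 0.66 in DL. Levels near background and 3 pools a group limit the precision.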

Other observations

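Among probe sets with no gene symbol, Ssc.26569.1.S1_at measured 2.72, 2.79 and 2.54 in the Pi pools and 6.81, 7.10 and 6.80 in the DL pools (-4.22 ± 0.54, adjusted p = 0.00123 by limma). Ssc.22627.1.S1_at measured 5.55, 7.04 and 6.78 in the Pi pools and 2.12, 3.93 and 2.34 in the DL pools (3.66 ± 0.52, adjusted p = 0.00304 by limma). Of the 329 probe sets that passed, 157 had no symbol or several.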
